A study of Homo sapiens with 8 samples.

Results

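Collagens are the triple-helical proteins of the extracellular matrix, and the genes described here are those whose name has the form COL, a number, A and a number, antisense names left out. The rule found 44 of the 60286 genes in the deposited matrix, and their counts made up 0.340% of all counts. The cells came from neural cultures of H1 origin (H1 is an established line of human embryonic stem cells), either flat (2D) or as organoids (3D), and the study concerned their cell makeup and their response to cocaine, dopamine and morphine. RNA was read cell by cell with split-pool barcodes, where cells are mixed and split again and again until each carries its own combination.

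Each cell name carried a culture tag, and 46 tags were found over 9 arrangements. The labels do not define the tag names. All cells derive from the same H1 line, and no genetic change is named for any group. The arrangement 2DMono had 6 tags (AcDop 2, AcMor 2 and Vehic 2), 3DMono had 6 tags with the same treatments, 2DCocu had 12 tags (AcCoc 4, AcMor 4 and Vehic 4) and 3DFusi had 10 tags (AcCoc 4, AcMor 3 and Vehic 3). AcCoc, AcMor, AcDop and Vehic resemble the cocaine, morphine, dopamine and untreated states in the labels, which give no dose and no time. The remaining tags carried no treatment. They belonged to 2DProto2Fjo, 2DProto3Wu and 2DProto4Nic with 2 tags each and to 3DProto1For and 3DProto2Xia with 3 tags each. Whether numbered tags are separate cultures is not stated, so n is the number of tags and p-values measure only the spread between tags. The matrix held 43693 cells with a median of 12776 counts per cell, and a tag held 3623812 to 58776265 counts. Levels are given as CPM, a gene's counts per 1000000 counts of the tag or cluster. Gene length is not divided out, so levels are compared between samples and not between genes. In sums over a tag, fewer cells of a type and less RNA per cell cannot be told apart.

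Collagen chains are folded as trimers in the endoplasmic reticulum, secreted, trimmed and assembled into distinct structures. Fibrillar collagens form the tensile fibres of connective tissue, type IV chains form the sheets of basement membranes, and fibril-associated collagens decorate fibres. In the brain, type IV collagen lies mainly in the basement membranes of vessels and of the pial surface, whereas fibrillar collagens are mostly made by fibroblasts of the meninges and vessels. Type II, type IX and type XI chains are the classical set of cartilage.

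The 6 type IV genes sit as 3 head-to-head pairs, in which neighbouring genes are read away from each other out of a short shared stretch. Those stretches are printed because the members of a pair moved together across cell types, as described further on. They are plus-strand sequences from RefSeq on GRCh38.p14, with CCAAT (or its reverse complement ATTGG) in capitals. COL4A1 and COL4A2 are parted by 126 bases at chr13:110307158-110307283, COL4A4 and COL4A3 by 135 bases at chr2:227164489-227164623, and COL4A6 and COL4A5 by 379 bases, of which the 250 next to COL4A5 are shown (chrX:108439588-108439837).
COL4A1 and COL4A2: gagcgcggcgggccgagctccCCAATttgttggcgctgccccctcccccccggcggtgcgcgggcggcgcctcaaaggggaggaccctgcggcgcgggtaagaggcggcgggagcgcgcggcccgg
COL4A4 and COL4A3: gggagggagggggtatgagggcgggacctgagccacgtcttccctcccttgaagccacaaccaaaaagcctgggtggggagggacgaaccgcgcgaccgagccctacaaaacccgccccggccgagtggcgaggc
COL4A6 and COL4A5: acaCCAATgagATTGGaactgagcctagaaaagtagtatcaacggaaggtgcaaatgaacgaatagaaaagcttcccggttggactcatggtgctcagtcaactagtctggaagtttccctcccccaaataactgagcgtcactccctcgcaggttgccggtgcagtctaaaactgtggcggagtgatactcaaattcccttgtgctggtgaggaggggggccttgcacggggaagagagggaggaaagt
The GC content of the printed letters was 80.2%, 68.1% and 51.2% in that order. CCAAT, searched on both strands, occurred 1 time, 0 times and 2 times, against 21.1%, 22.1% and 32.0% of 35116 RefSeq promoters that hold it in a window of the same length. GGGCGG occurred 1, 2 and 0 times (34.6%, 35.5% and 42.6% of promoters), and TATAAA occurred in none of these windows (5.87%, 6.13% and 10.7%). A match is a description of letters only.

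Collagen counts were concentrated in a few cell types. Cells were clustered without the collagen genes, which gave 26 clusters named from marker genes where enough markers were detected. Of the 44 collagens, 32 were highest in mesenchymal-like, cartilage-like or muscle-like clusters, 12 were highest elsewhere, and 0 were highest in a cluster of neuron-like cells. In 30 of the 44 the highest cluster exceeded 10 times the median cluster. No share of all genes is given beside these counts, so they describe the collagens alone. Some members were low even there, such as COL17A1 with a mean over tags of 5.81 CPM in cluster 5. These ranks pool all cells of a cluster. With equal weight for every tag that had 20 or more cells of a cluster, 32 genes kept the same highest cluster, and 1 gene, COL28A1, was highest in a neuron-like cluster (cluster 8, 25.2 CPM over 2 tags). Summed over all collagens, the level was 25946 CPM in the cartilage-like cluster 25, 12672 and 12603 CPM in the mesenchymal-like clusters 14 and 5, and 5646 CPM in the astrocyte-like cluster 2. In the large neuron-like clusters 0, 1 and 3 it was 579, 672 and 685 CPM. The pooled value of cluster 14 depends on the arrangements that entered, as 791 of its 1404 cells came from 2DProto4Nic. Its level was 26018 CPM in 2DMono (89 cells), 21593 CPM in 2DCocu (452 cells) and 4573 CPM in 3DFusi (13 cells). Cluster 5 was at 13223 CPM in 3DFusi (1619 cells) and 11085 CPM in 3DMono (295 cells). These cluster values are descriptions, since each cluster was chosen from the same cells.

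**Figure D1:**
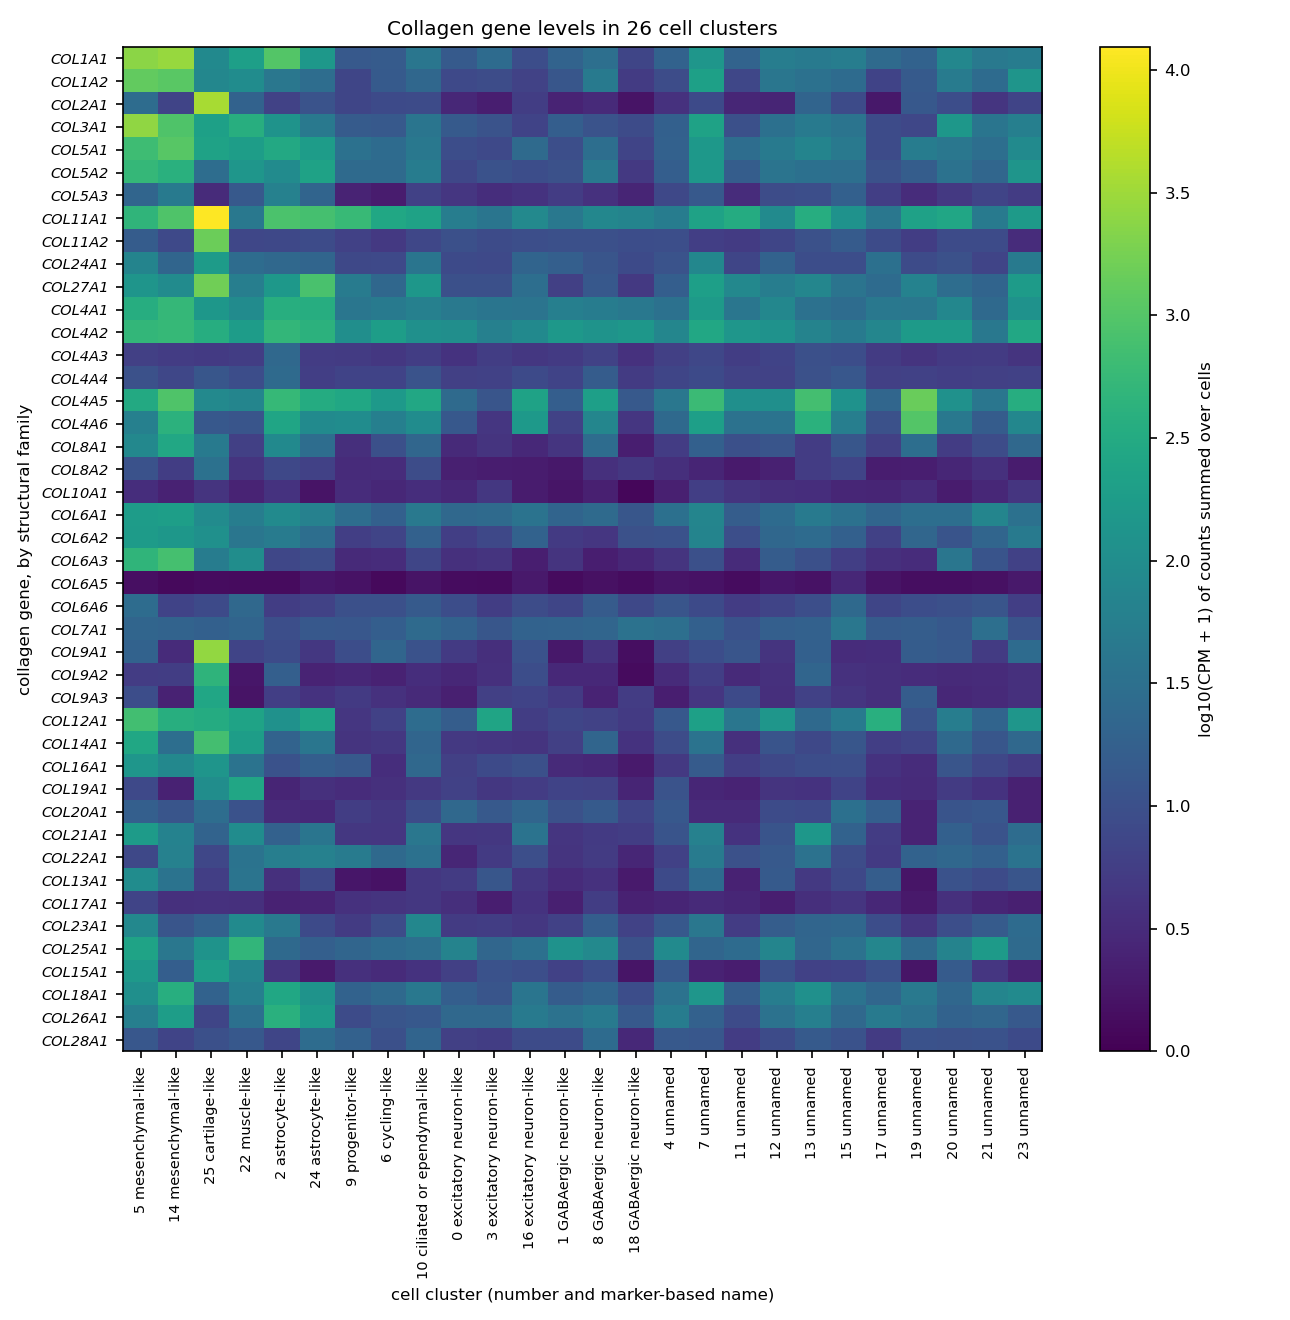
Levels of the 44 collagen genes (rows, by structural family) in 26 cell clusters (columns, number and marker-based name), as log10(CPM + 1) of counts summed over the cells of a cluster. The columns for clusters 5, 14 and 25 carry the brightest cells, with COL11A1 at 12386 CPM in cluster 25, and COL6A5 is dark in every column, at most 1.90 CPM.

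The fibrillar genes split between mesenchymal-like and cartilage-like cells. COL1A1 and COL1A2, the chains of type I collagen, stood at 2882 and 1123 CPM in cluster 14 and at 2421 and 1302 CPM in cluster 5, against 13.7 and 6.89 CPM in the excitatory neuron-like cluster 0. COL3A1, the type III chain of elastic connective tissue, was highest in cluster 5 at 2599 CPM, and over tags with 20 or more cells of that cluster it ranged from 1202 to 4941 CPM. COL2A1, the main fibre of cartilage, was at 3620 CPM in the cartilage-like cluster and at most 27.1 CPM in any other cluster. COL11A1 and COL11A2, the type XI chains that nucleate cartilage fibrils, were also highest in cluster 25, at 12386 and 1473 CPM. COL27A1, another cartilage-associated fibrillar chain, reached 1579 CPM there and 814 CPM in the astrocyte-like cluster 24. COL5A3, a minor type V chain, was at 62.5 CPM in the astrocyte-like cluster 2, its highest level over pooled cells, but with equal weight for tags cluster 14 was higher, at 133 ± 96.6 CPM (n = 11) against 57.9 ± 18.9 CPM (n = 18). COL1A1, COL1A2 and COL12A1 were also highest in cluster 14 by that mean, at 5067, 1675 and 851 CPM.

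The members of other structural families were spread over several clusters. The fibril-associated COL9A1, COL9A2 and COL9A3, which together form type IX collagen, stood at 2675, 450 and 261 CPM in the cartilage-like cluster and at most 25.6, 20.3 and 14.3 CPM elsewhere. The transmembrane collagen COL25A1 and the fibril-associated COL19A1 were highest in the muscle-like cluster 22, at 497 and 267 CPM. COL25A1 also reached 121 CPM in the GABAergic neuron-like cluster 1. Over tags with 20 or more cells it averaged 162 ± 115 CPM in cluster 1. Its mean was 214 ± 117 CPM in the mesenchymal-like cluster 5 and 194 ± 340 CPM in the unnamed cluster 21. COL26A1, a poorly understood secreted collagen, was highest in cluster 2 at 397 CPM. COL4A5 and COL4A6 were highest in cluster 19, at 1436 and 1009 CPM. Cluster 19 had 8 of 8 cycling markers and 5 progenitor markers. It stayed unnamed because its leading genes held DCT, of the pigment or retina list, and no cycling marker. COL6A3, a chain of beaded microfibrils, was highest in cluster 14 at 774 CPM over pooled cells. Its mean over the 11 tags with 20 or more cells of that cluster was 1753 ± 854 CPM. COL12A1, which links fibres to their surroundings, was at 716 CPM in cluster 5, at 245 CPM in the excitatory neuron-like cluster 3 and at 15.3 CPM in the excitatory neuron-like cluster 0.

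Genes that share a type IV stretch followed each other over the clusters. Pearson's r of log2(CPM + 1) over the 26 clusters was 0.93 for COL4A1 with COL4A2, 0.78 for COL4A3 with COL4A4 and 0.96 for COL4A5 with COL4A6, the last being the highest of all 946 pairs of collagen genes. Across pairs it was 0.46 for COL4A1 with COL4A5 and 0.26 for COL4A1 with COL4A3, and the median of all 946 pairs was 0.33. The points share libraries and differ in depth, so r is given as a description. The type I partners, which lie on different chromosomes (COL1A1 on 17, COL1A2 on 7), had r = 0.88.

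Type I collagen is normally a trimer of COL1A1 and COL1A2 chains. Counts of COL1A1 were 24.2 times those of COL1A2 in cluster 2, and per tag the ratio ran from 2.43 to 76.7 with a median of 20.1. It was 1.86 in cluster 5, 2.57 in cluster 14 and 0.672 in cluster 7. By arrangement, the median ratio per tag was 10.6 in 2DMono (5.12 to 16.3), 2.93 in 2DCocu (1.57 to 3.66), 2.11 in 3DFusi (1.26 to 4.82) and 1.58 in 3DMono (0.930 to 2.15), so that no 2DMono tag overlapped the other 3 arrangements. Cluster 2 had 4 of 8 astrocyte markers (GFAP, SLC1A3, GJA1 and SPARCL1) and was led by CXCL14, CCN2, EDN1 and IL1R1, of which CCN2 is a matrix-associated growth factor. None of those 4 leading genes is an astrocyte marker, so the name astrocyte-like is uncertain for cluster 2, which held most cells of that class.

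The cell types behind the collagen counts differed between arrangements. The shares given here are of cells and counts summed over the tags of an arrangement, so large tags weigh most. In 2DMono, cluster 2 held 27.6% of cells and 70.8% of collagen counts. Of its 4842 cells, 1959 were in Vehic 1, which held 58776265 counts against at most 15237357 in another 2DMono tag. Cluster 2 was 14.2% to 47.0% of cells per 2DMono tag. In 2DCocu, cluster 14 held 4.34% of cells and 40.4% of collagen counts. Cluster 7 followed with 23.3% of cells and 21.1% of collagen counts, and cluster 2 with 17.4% and 20.8%. In 3DFusi, cluster 5 held 16.6% of cells and 57.9% of collagen counts, and cartilage-like cluster 25 held 2.52% of cells and 16.3%. Of the 246 cells of cluster 25 in 3DFusi, 150 were in AcCoc 3, and without that tag the cluster held 1.16% of cells and 11.9% of collagen counts. In 3DMono, cluster 5 held 4.24% of cells and 36.6% of collagen counts. Cluster 2 had 1 cell in 3DFusi and 1 cell in 3DMono. For COL1A1, astrocyte-like cells held 77.3% of the counts in 2DMono, whereas mesenchymal-like cells held 73.1% in 2DCocu, 85.3% in 3DMono and 92.4% in 3DFusi.

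**Figure D2:**
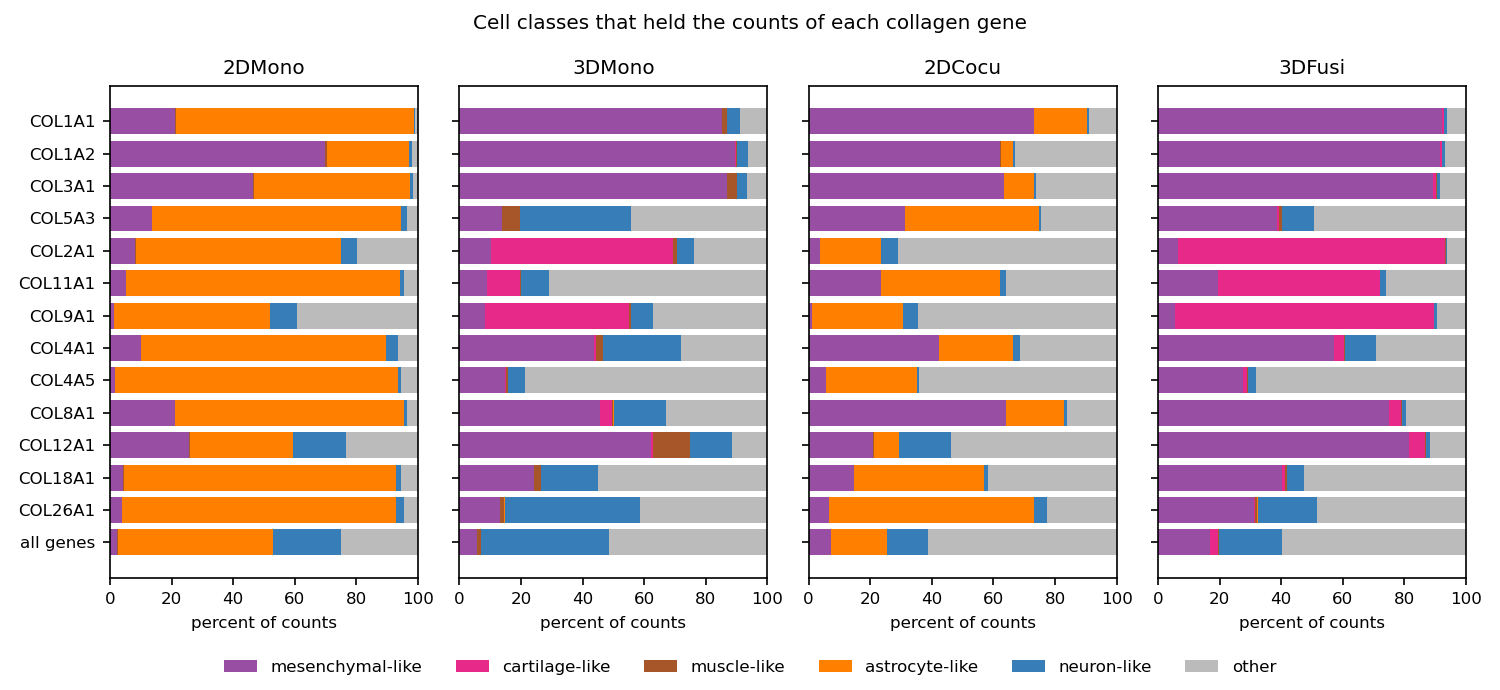
Percent of the counts of 13 collagen genes, and of all genes, that lay in each class of cells, for 2DMono, 3DMono, 2DCocu and 3DFusi; each bar adds to 100. Orange (astrocyte-like) leads for most genes in 2DMono, where it takes 77.3% of COL1A1 and 50.3% of all counts, and purple (mesenchymal-like) leads for COL1A1, COL1A2 and COL3A1 in the other 3 arrangements.

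In the comparison of 3DMono with 2DMono, most collagens were lower in 3DMono. The arrangements differed in cell makeup as well as in format, as described below. Of 43 collagens that passed the filter on low counts (COL6A5 did not), 24 were lower and 9 were higher in 3DMono (edgeR quasi-likelihood test, Benjamini-Hochberg adjusted p under 0.05 over 21862 genes), against 20.4% lower and 17.5% higher, or 38% called, among all genes tested. The median log2 fold change of the collagens was -1.20, beside 0.03 for all genes. Summed over collagens, the level was 1763 ± 416 CPM in 3DMono and 4525 ± 1416 CPM in 2DMono (SD, n = 6 each). Where library size alone replaced TMM scaling, the median of all genes moved to 0.22 here and to 0.13 in the comparison of 3DFusi with 2DCocu below, and the collagen calls were then 10 higher with 24 lower here and 16 higher with 12 lower there. With Vehic tags alone the calls were 1 higher and 20 lower, beside 1110 and 2137 of 22510 genes. With 1 tag left out the lower calls were 24 or 25, whereas the 9 higher calls became 3 without either Vehic tag of 2DMono, 4 without either AcDop tag of 2DMono and 5 without 3DMono Vehic 2.

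Among fibrillar genes 7 fell and 1 rose. COL1A1, at chromosome 17 from 50184101 to 50201631, was at 679, 1252, 420, 711, 727 and 986 CPM in the 6 tags of 2DMono and at 138, 84.5, 96.7, 41.8, 122 and 93.4 CPM in those of 3DMono (AcDop, AcMor, then Vehic). No tags overlapped, and the fall was -3.22 on the log2 scale (SE 0.25, edgeR adjusted p = 4.9e-07). COL1A2 did not pass, at 88.0 ± 57.3 CPM in 2DMono and 68.4 ± 36.3 CPM in 3DMono (log2 fold change -0.57, SE 0.28, edgeR adjusted p = 0.13). COL5A3, at chromosome 19 from 9959561 to 10010504, was at 21.9 to 64.8 CPM in 2DMono and 3.33 to 5.40 CPM in 3DMono, a log2 change of -3.41 (SE 0.24). COL5A1, the main type V chain, lay between 135 and 523 CPM in 2DMono and between 25.8 and 64.8 CPM in 3DMono (log2 fold change -2.61, SE 0.28). Neither of these type V chains overlapped between arrangements. Here and in the other comparisons, non-overlap only describes genes picked as called and adds no support to a call. The share of all genes without overlap is given only for AcCoc against Vehic in 2DCocu. COL27A1 went from 98.9 to 171 CPM in 2DMono to 20.9 to 60.6 CPM in 3DMono, also without overlap (log2 fold change -1.87, SE 0.17). COL2A1 was the only fibrillar gene called higher, with 2.57 to 6.31 CPM in 2DMono and 2.68 to 52.2 CPM in 3DMono, and its tags overlapped (log2 fold change 1.55, SE 0.50, edgeR adjusted p = 0.027).

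All 6 type IV genes fell. COL4A1 was at 291, 422, 151, 269, 258 and 353 CPM in 2DMono and at 129, 70.7, 83.6, 68.6, 76.9 and 72.7 CPM in 3DMono (AcDop, AcMor, then Vehic), a log2 change of -1.96 (SE 0.19). Its partner COL4A2 changed by -1.40 (SE 0.15). COL4A3 and COL4A4, chains of the kidney and sensory basement membranes, changed by -2.02 (SE 0.20) and -2.03 (SE 0.17) from low levels, 16.3 ± 3.14 and 19.5 ± 4.84 CPM in 2DMono to 4.63 ± 1.46 and 5.43 ± 1.42 CPM in 3DMono. None of these 4 overlapped between arrangements. COL4A5 and COL4A6 changed by -1.08 (SE 0.13) and -1.18 (SE 0.15), and their tags overlapped.

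The remaining families moved both ways. COL8A1, a network-forming chain of vascular and corneal matrix at chromosome 3 from 99638594 to 99799217, was at 48.2 to 81.5 CPM in 2DMono and 2.89 to 6.81 CPM in 3DMono, the largest change of all 43 (log2 fold change -3.83, SE 0.20, edgeR adjusted p = 6.3e-09). COL26A1 was at 149 to 406 CPM in 2DMono and 20.8 to 29.5 CPM in 3DMono (log2 fold change -3.46, SE 0.23). COL12A1 went from 174 to 351 CPM in 2DMono to 27.5 to 61.6 CPM in 3DMono (log2 fold change -2.64, SE 0.13). COL18A1, a basement membrane proteoglycan whose end releases endostatin, went from 102 to 370 CPM in 2DMono to 22.6 to 50.4 CPM in 3DMono (log2 fold change -2.28, SE 0.24). For these 4 genes no tag of one arrangement reached the other.
The genes called higher in 3DMono outside the fibrillar group included COL9A1 (2.16 to 6.96 CPM in 2DMono, 4.76 to 71.9 CPM in 3DMono, log2 fold change 1.7, SE 0.52, edgeR adjusted p = 0.0218) with overlapping tags, and COL15A1, a basement membrane collagen of muscle and vessels, at 5.44 ± 1.01 against 21.4 ± 12.8 CPM without overlap (log2 fold change 1.69, SE 0.32). COL6A6 also rose without overlap, from 4.38 ± 0.95 to 10.9 ± 1.80 CPM (log2 fold change 1.13, SE 0.16). COL9A1 did not pass without either AcDop tag or either Vehic tag of 2DMono.

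**Figure D3:**
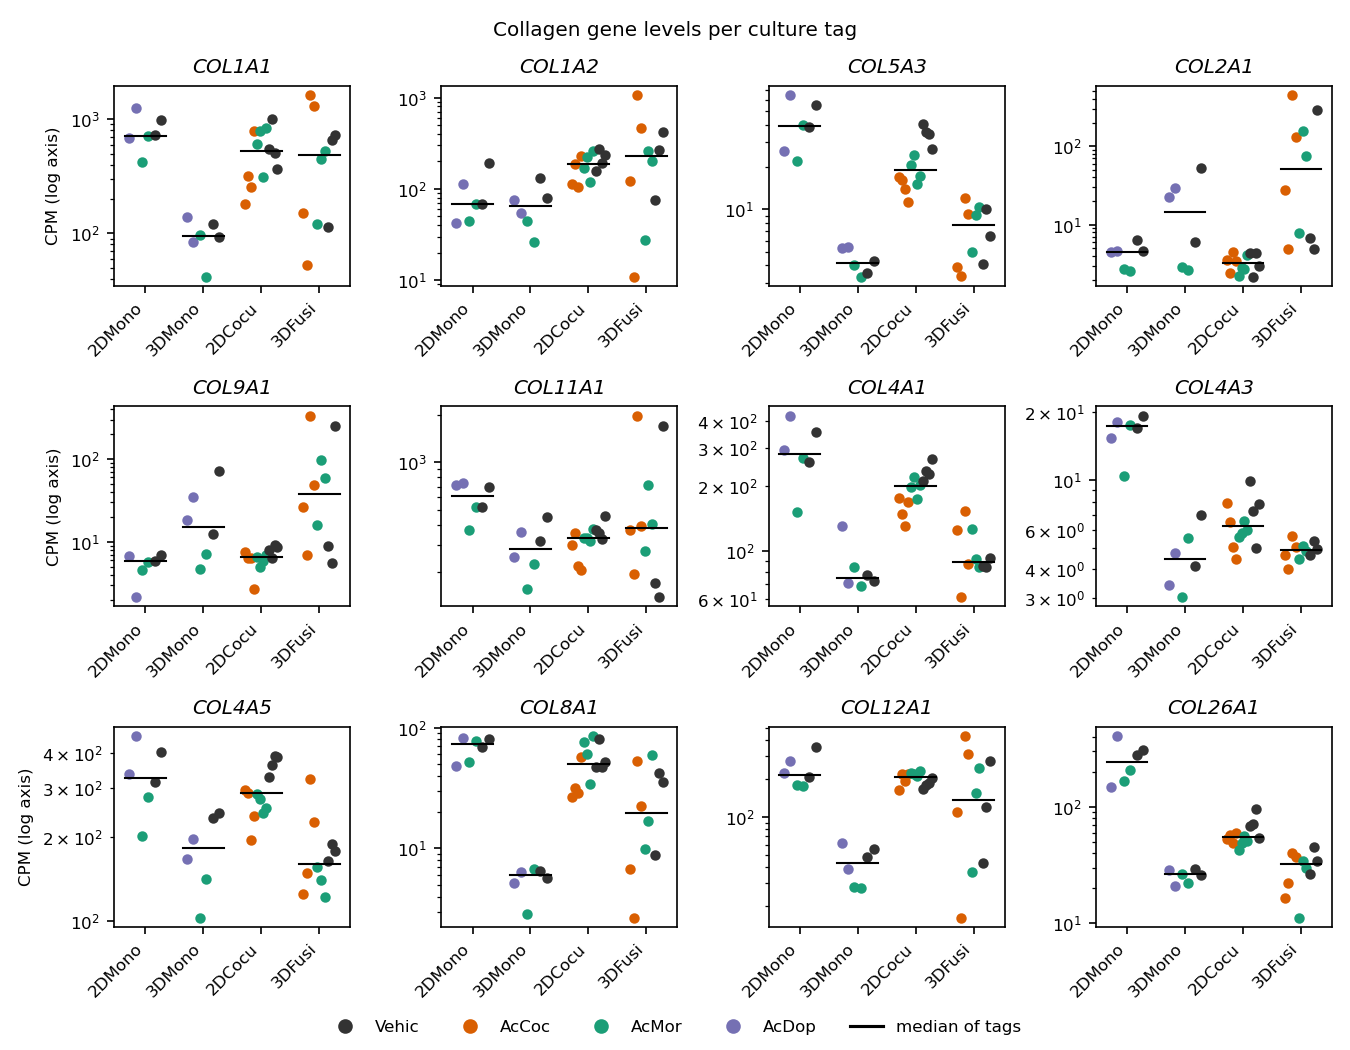
Levels of 12 collagen genes in CPM (log axis) for every tag of 2DMono, 3DMono, 2DCocu and 3DFusi; each point is a tag, its colour gives the treatment name, and the line is the median of the tags. For COL8A1 all 6 tags of 3DMono sit between 2.89 and 6.81 CPM, below the 48.2 to 81.5 CPM of 2DMono, and for COL2A1 the 3DFusi tags spread from 4.91 to 449 CPM.

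Cell makeup differed with the arrangement, and its part in the whole-tag result was not tested beyond leaving classes out. Astrocyte-like cells were 18.7% to 51.7% of cells in 2DMono tags and at most 0.0881% in 3DMono tags. Leaving mesenchymal-like, cartilage-like and muscle-like cells out of the sums kept 28 of the 33 calls in the same direction. Then 35 collagens were called, 5 higher and 30 lower, beside 3955 and 4529 of 21357 genes. Leaving out astrocyte-like cells as well was an alternative added after seeing the data. It gave 20 calls, 8 higher and 12 lower, beside 3321 and 3777 of 20744 genes. The median log2 fold change of the collagens was then 0.09 in place of -1.20, beside 0.03 for all genes. Of the 20 calls, 10 matched the main direction and 5 were opposite to it. The opposite calls were COL11A1 at 1.49, COL4A5 at 1.75, COL4A6 at 2.25, COL5A1 at 0.78 and COL15A1 at -0.55 on the log2 scale. The log2 change of COL1A1 was then -0.79 in place of -3.22, that of COL26A1 -0.71 in place of -3.46, that of COL8A1 -1.86 in place of -3.83 and that of COL12A1 -4.06 in place of -2.64.

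In the comparison of 3DFusi with 2DCocu, 15 collagens rose and 12 fell of 43 tested, against 26.1% higher and 22.7% lower, or 48.8% called, among all genes tested. The direction of calls moved with the cells and tags that entered. Without mesenchymal-like, cartilage-like and muscle-like cells 7 were higher and 24 lower, beside 6021 and 5112 of 21803 genes. Of these calls, 3 were opposite to those over all cells (COL3A1, COL9A2 and COL9A3). With Vehic tags alone 5 were higher and 13 lower, beside 3014 and 3005 of 21408 genes. The main fit takes 3DFusi tags as independent, although same-numbered ones deviated together. With 3DFusi tags summed by number, in a fit without the treatment, 12 were higher and 13 lower, beside 4508 and 4346 of 21955 genes. The median log2 fold change was 0.05 for collagens and 0.04 for all genes. Summed collagens were at 4180 ± 2880 CPM in 3DFusi (n = 10) and 3680 ± 761 CPM in 2DCocu (n = 12), and tags of 3DFusi ran from 1378 to 10721 CPM. Of the 43 genes, 21 were called in both format comparisons (63.6% of the calls for 3DMono and 77.8% of those for 3DFusi), 10 lower in both, 8 higher in both and 3 in opposite directions. Of the 21433 genes tested in both, 24.3% were called in both (64.1% and 49.7% of the calls), 12.2% lower in both, 10.5% higher in both and 1.66% in opposite directions.

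**Figure D4:**
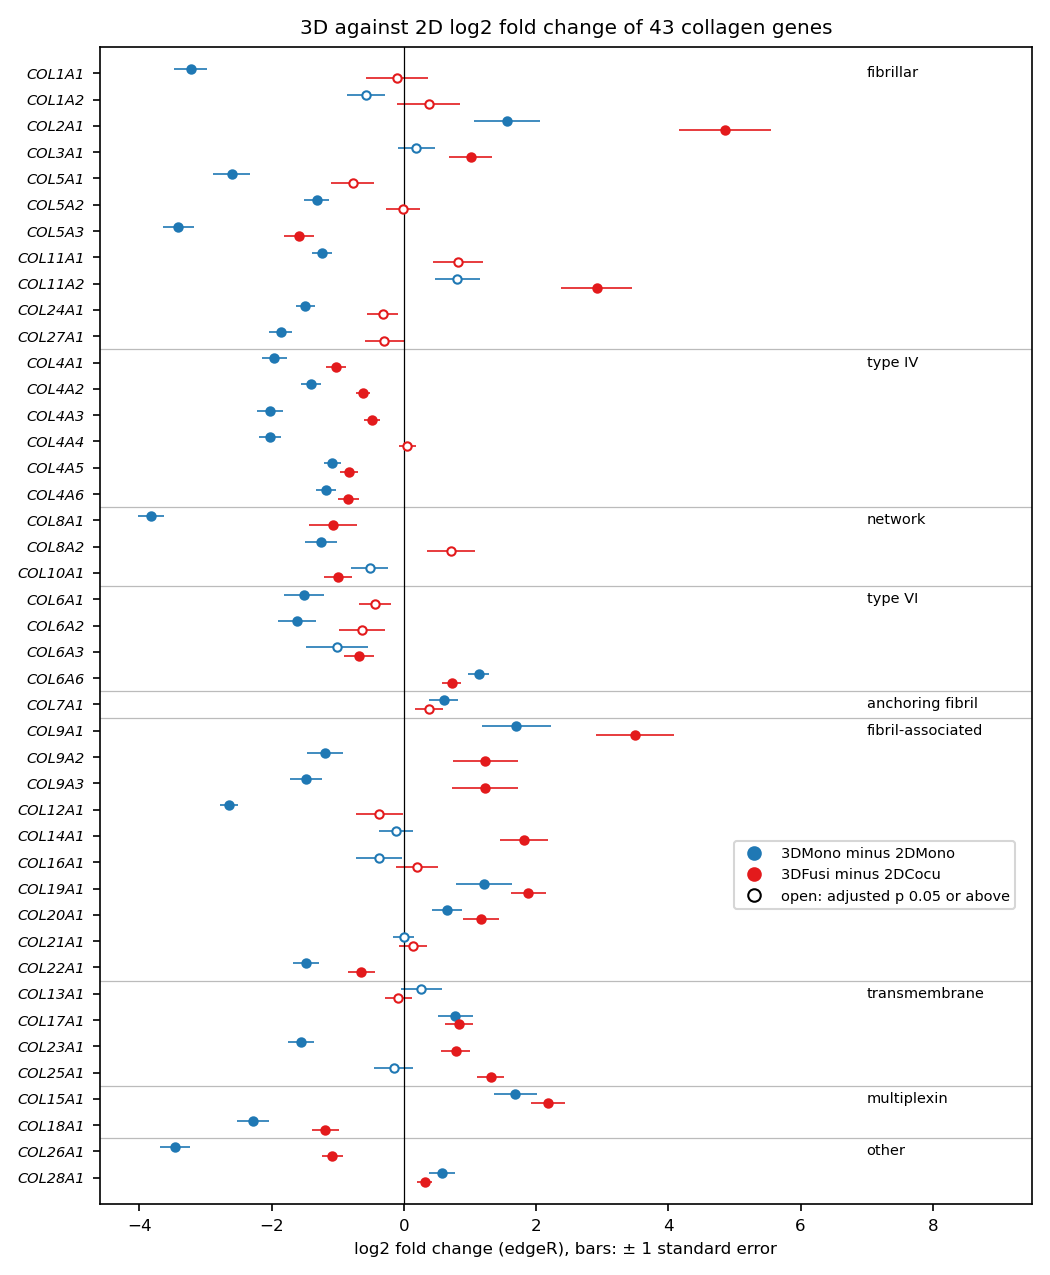
Log2 fold changes (edgeR) with 1 standard error for 43 collagen genes in 3DMono minus 2DMono (blue) and 3DFusi minus 2DCocu (red), grouped by structural family; open points did not pass the adjusted p of 0.05. The type IV genes lie left of 0 in blue in every row, from -2.03 to -1.08, and COL2A1 lies farthest right in red at 4.86.

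The 3 largest rises were those of COL2A1, COL9A1 and COL11A2, chains of the cartilage set. COL2A1, at chromosome 12 from 47972967 to 48006212, was at a median of 3.23 CPM in 2DCocu (2.19 to 4.50) and 51.6 CPM in 3DFusi (4.91 to 449). The log2 change was 4.86 (SE 0.70, edgeR adjusted p = 6.1e-06). Its tags did not overlap, but the lowest 3DFusi value, in AcCoc 2, rests on 22 counts. COL9A1, at chromosome 6 from 70215061 to 70303084, went from a median of 6.50 CPM (2.67 to 9.11) to 37.6 CPM (5.54 to 336), with overlapping tags (log2 fold change 3.50, SE 0.59). COL11A2 went from 6.15 CPM (3.96 to 11.9) to 25.9 CPM (4.40 to 187), a log2 change of 2.91 (SE 0.54). COL14A1, a fibril-associated collagen of skin and tendon, went from 21.7 CPM (15.4 to 29.7) to 71.3 CPM (15.2 to 331), a log2 change of 1.82 (SE 0.36). COL9A2 and COL9A3 passed narrowly, at 1.23 (SE 0.49, edgeR adjusted p = 0.041) and 1.23 (SE 0.50, edgeR adjusted p = 0.046). COL11A1, the remaining chain of that set, did not pass (0.82, SE 0.37, edgeR adjusted p = 0.075), and neither did COL27A1 (-0.30, SE 0.30).
The tags differed widely within 3DFusi. Cartilage-like cells were 10.05% of AcCoc 3 and 6.82% of Vehic 4, where COL2A1 stood at 449 and 287 CPM. No cartilage-like cell was found in AcCoc 2, AcMor 1, Vehic 1 and Vehic 3, where COL2A1 was at 4.91, 7.94, 6.73 and 4.95 CPM, each above the highest 2DCocu tag. Of 263 cartilage-like cells, 246 were in 3DFusi and 17 in 3DMono. Without AcCoc 3, COL2A1 changed by 4.36, COL9A1 by 2.89, COL11A2 by 2.55 and COL14A1 by 1.39, whereas COL9A2 and COL9A3 fell short of the threshold at 0.72 and 0.62; each fell short in 12 of the 22 fits that left out 1 tag. With the tag number as a block they were at 0.70 and 0.74 and did not pass. That block also spans 2DCocu, where numbers did not pair tags. With Vehic tags alone COL2A1 at 4.61, COL9A1 at 3.26, COL11A2 at 3.39 and COL14A1 at 1.36 did not pass. Without mesenchymal-like, cartilage-like and muscle-like cells, COL2A1 was at 1.33 and still passed, while COL9A1 at 0.48 and COL11A2 at 0.33 did not. COL9A2, COL9A3 and COL14A1 were then at -1.01, -0.99 and -0.49, of which the first 2 passed as lower.

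Type IV genes made up 5 of the 12 falls. Among the other rises, COL15A1 went from a median of 7.18 CPM (5.33 to 12.7) to 36.9 CPM (7.14 to 75), a log2 change of 2.18 (SE 0.25), and COL19A1 from 2.35 CPM (1.49 to 3.21) to 5.93 CPM (3.88 to 27.9), a log2 change of 1.88 (SE 0.27) without overlap. COL25A1, a neuronal and muscle membrane collagen, changed by 1.31 (SE 0.20), with medians of 35.7 and 97.2 CPM, and COL20A1 by 1.17 (SE 0.28), with medians of 4.62 and 12.1 CPM. Of the type IV genes COL4A1 fell most, by a log2 change of -1.03 (SE 0.15), with medians of 199 CPM in 2DCocu and 88.8 CPM in 3DFusi. COL4A4 did not pass (0.05, SE 0.13). COL5A3 fell by 1.58 on the log2 scale (SE 0.22), with medians of 19.0 and 7.80 CPM, and COL18A1 by 1.19 (SE 0.20), with medians of 111 and 56.3 CPM. The other falls were those of COL26A1, COL8A1, COL10A1, COL6A3 and COL22A1. COL1A1 did not pass, with medians of 528 CPM in 2DCocu and 486 CPM in 3DFusi (log2 fold change -0.10, SE 0.47).

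The difference between both format comparisons was tested in 1 fit over Vehic and AcMor tags, the treatments that all 4 arrangements share. It was positive for 9 collagens and negative for 0 (5.91% of 23331 genes were called positive and 4.06% negative, 9.98% either way). Without 3DFusi Vehic 1 it was called for 18 collagens, and no share of all genes is given for that fit. The largest differences in log2 fold change were those of COL8A1 (2.68, SE 0.58), COL1A1 (2.48, SE 0.59), COL26A1 (2.21, SE 0.30), COL12A1 (2.07, SE 0.53) and COL23A1 (1.86, SE 0.37), each with an edgeR adjusted p under the threshold. The others were COL4A4, COL5A3, COL27A1 and COL4A3.

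In the same fit, 3DFusi tags exceeded 3DMono tags in 16 collagens and were lower in 1 (6.19% and 3.7% of all genes, 9.9% called). COL1A1 was at 433 ± 264 CPM in 3DFusi (n = 6) and 88.4 ± 33.5 CPM in 3DMono (n = 4), a log2 difference of 2.19 (SE 0.46). COL8A1 differed by 2.35 (SE 0.46) without overlap, at 28.7 ± 20.1 against 5.46 ± 1.78 CPM. COL14A1, COL12A1 and COL3A1 differed by 2.10 (SE 0.43), 1.80 (SE 0.41) and 1.59 (SE 0.35). COL4A6 was the gene called lower, at 51.6 ± 11.7 against 70.6 ± 26.9 CPM (log2 difference -0.46, SE 0.12). Mesenchymal-like cells were 4.27% to 21.2% of cells in the 6 fitted 3DFusi tags and 2.28% to 6.39% in the 4 fitted 3DMono tags. Without mesenchymal-like, cartilage-like and muscle-like cells 10 collagens were called, 9 higher and 1 lower, beside 1224 and 816 of 22696 genes. The median log2 difference of the collagens was then 0.40 in place of 1.02. Same-numbered 3DFusi tags deviated together, and with the number as a block 4 collagens were called in place of 17. COL1A1, COL12A1, COL3A1 and COL4A6 were no longer among them. The block gave a number the same effect in all 4 arrangements. Fitted 3DFusi tags had numbers 1, 3 and 4 and 3DMono tags 1 and 2, so only number 1 was shared. How much of the drop goes with pairing within 3DFusi was not tested. Over all genes, the calls went from 2309 of 23331 to 589 of 23899 with that block. COL4A6 was also not called with 3DFusi tags summed by number, or without 3DFusi AcMor 4, 3DMono Vehic 1 or 3DMono Vehic 2. Without 3DMono Vehic 1, 3DMono AcMor 2 or 3DFusi AcMor 4 the count was 9, 10 and 11.

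Between the flat arrangements, 2DCocu and 2DMono differed in 10 collagens, 5 higher and 5 lower in 2DCocu (9.24% and 10% of all genes, 19.3% called). COL26A1 was at 60.8 ± 16.8 CPM in 2DCocu (n = 8) and 241 ± 64.8 CPM in 2DMono (n = 4), a log2 difference of -2.10 (SE 0.19). COL4A3 and COL4A4 differed by -1.38 (SE 0.18) and -1.40 (SE 0.18). All 3 were without overlap, and all 3 have cluster 2 as their highest cluster. COL21A1, a fibril-associated collagen of vessel walls, was higher in 2DCocu without overlap (43.6 ± 10.5 against 17.3 ± 7.50 CPM, log2 difference 1.28, SE 0.24), and COL6A3 was higher by 1.25 (SE 0.40) with overlap. Within the cells of cluster 2, COL26A1 was at 217 ± 51.5 CPM in 12 tags of 2DCocu and 489 ± 90.3 CPM in 6 tags of 2DMono, and COL1A1 was at 469 ± 320 and 1337 ± 307 CPM. These 2 descriptions within 1 cluster carry no test. Without mesenchymal-like, cartilage-like and muscle-like cells 18 collagens were called, 7 higher and 11 lower, beside 2285 and 2506 of 22696 genes. With the tag number as a block 2 were higher and 6 lower, beside 1648 and 1711 of 23899 genes. Without 2DMono AcMor 2 the whole-tag count was 5, and without 2DMono Vehic 1 it was 6, and in both COL6A3 was not called.

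The 2D and 3D formats were also compared within neuron-like cells. Excitatory neuron-like cells were mainly cluster 3 in 2D and cluster 0 in 3D. Cluster 3 had 1200 cells in 2DMono, 1858 in 2DCocu and 0 in 3DMono and 3DFusi. Cluster 0 had 8 cells in 2DMono, 2 in 2DCocu, 2334 in 3DMono and 1152 in 3DFusi. In this class, format and cluster therefore cannot be told apart. Of 40 collagens tested in it, 11 differed between 3DMono and 2DMono, 6 higher and 5 lower (14.5% and 14.6% of genes, 29.1% called). COL12A1 was at 192 ± 43.6 CPM in 2DMono (n = 6) and 16.8 ± 4.62 CPM in 3DMono (n = 6), a log2 change of -3.69 (SE 0.19), and the tags, 142 to 260 and 11.0 to 22.1 CPM, did not overlap. The same gene was at 242 ± 79.4 CPM in 2DCocu (n = 12) and 20.8 ± 17.7 CPM in 3DFusi (n = 10), a log2 change of -3.66 (SE 0.33) among 27 collagens tested, 12 of them called with 9 higher and 3 lower (21.4% and 18.8% of genes, 40.2% called). With clustering at resolution 1.2 the count was 7, beside 4536 of 11219 genes. COL4A5 and COL4A6, which fell over whole tags, were higher in 3D in this class. The log2 changes were 1.22 (SE 0.24) and 1.89 (SE 0.27) between 2DMono and 3DMono. Between 2DCocu and 3DFusi they were 1.49 (SE 0.53) and 2.11 (SE 0.76). COL4A6 was at 0 to 4.00 CPM in 2DMono and 10.2 to 16.5 CPM in 3DMono, without overlap. In 3DFusi the class also held 64 cells of cluster 16. Over tags with 20 or more cells, COL4A6 averaged 230 CPM in cluster 16 and 12.3 CPM in cluster 0. COL25A1 rose by 1.67 (SE 0.32) and 1.50 (SE 0.38) in the same comparisons. COL22A1, COL13A1 and COL9A3 fell between 2DMono and 3DMono by 2.04 (SE 0.43), 2.00 (SE 0.38) and 1.94 (SE 0.40) on the log2 scale.
In GABAergic neuron-like cells 5 of 14 collagens tested differed between 3DMono and 2DMono, 2 higher and 3 lower (8.35% and 13.1% of genes, 21.4% called). COL25A1 went from 302 ± 90.4 CPM (230 to 447) in 2DMono to 80.0 ± 34.8 CPM (28.9 to 126) in 3DMono, a log2 change of -2.10 (SE 0.23), opposite to the direction in excitatory neuron-like cells. COL9A3 and COL24A1 fell by 2.89 (SE 0.44) and 2.47 (SE 0.38) on the log2 scale, and COL11A1 and COL4A2 rose by 1.05 (SE 0.22) and 0.65 (SE 0.15). The difference between excitatory and GABAergic neuron-like cells itself was not tested.

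Within arrangements, treatments were compared with Vehic. In 2DCocu, AcCoc tags had 9 collagens lower than Vehic tags and 0 higher, where 2.5% of all genes were called lower, 3.6% higher and 6.1% either way, and none of the 9 overlapped. Among all genes tested 12.1% did not overlap, and among all genes called lower 90.3% did not. COL5A3 was at 17, 16.2, 13.9 and 11.3 CPM in AcCoc and at 40.1, 35.3, 34.1 and 26.6 CPM in Vehic, a log2 change of -1.18 (SE 0.16, edgeR adjusted p = 0.0019). COL23A1, a transmembrane collagen, was at 13.2, 14, 12.6 and 15.0 CPM against 24.6, 19.0, 24.8 and 31.8 CPM (log2 fold change -0.83, SE 0.22). COL22A1, a collagen of tissue junctions, was at 28.3, 27.1, 22.3 and 17.9 CPM against 42.0, 33.7, 47.4 and 37.8 CPM (log2 fold change -0.71, SE 0.15). Next came COL18A1, at 92.9 ± 17.4 against 151 ± 35.2 CPM (log2 fold change -0.66, SE 0.16, n = 4 each), and COL5A2, at 80.7 ± 20.4 against 124 ± 10.2 CPM (log2 fold change -0.58, SE 0.17). COL4A1, COL4A5, COL4A6 and COL27A1 changed by -0.56, -0.50, -0.51 and -0.46. The count fell from 9 to 3 without Vehic 3, to 4 without Vehic 1 and to 5 without AcCoc 3. Of the 12 fits that left out 1 tag, COL23A1 did not pass in 7, COL5A2 in 9 and COL18A1 in 2. AcMor tags had 1 collagen called, COL5A3, at 20.7, 24.2, 15.0 and 17.3 CPM (log2 fold change -0.78, SE 0.16), a call lost in 6 of the 12 such fits, where 0.29% of all genes were called lower, 0.685% higher and 0.975% either way.
Cell shares moved with these falls. Excitatory neuron-like cells, low in collagen counts, were 6.22 ± 2.15% of cells in Vehic, 27.0 ± 3.49% in AcCoc and 22.9 ± 1.90% in AcMor. The share of cluster 7 was 34.7 ± 3.71% of cells in Vehic, 16.0 ± 2.50% in AcCoc and 17.4 ± 2.70% in AcMor (SD, n = 4 each), and cluster 2 was 21.3 ± 2.04%, 14.9 ± 1.91% and 15.4 ± 1.45%. Mesenchymal-like cells were 5.74 ± 2.33%, 2.67 ± 0.73% and 4.49 ± 1.7%. Within cluster 2, COL5A3 was at 75.7 ± 12.8 CPM in Vehic (63.0 to 88.4), 38.4 ± 4.53 CPM in AcCoc (34.9 to 45.1) and 43.6 ± 10.002 CPM in AcMor (31.5 to 55.6), so that Vehic tags lay above the rest there. In cluster 7 its tags overlapped, at 8.56 to 21.7 CPM in Vehic and 2.53 to 16.3 CPM in AcCoc, and in the unnamed cluster 12 they did not, at 7.27 to 12.5 CPM in Vehic and 4.67 to 5.98 CPM in AcCoc. Within cluster 2 the other 8 genes overlapped between AcCoc and Vehic, and within cluster 7 all 9 did, with COL4A1 at 177 ± 38.8 CPM in Vehic and 208 ± 36.1 CPM in AcCoc there. COL4A5 in cluster 2 was at 489 ± 62.2, 514 ± 40.9 and 471 ± 57.4 CPM, and COL4A6 at 224 ± 31.5, 239 ± 48.9 and 235 ± 17.4 CPM, with overlapping tags. The part of the cell shares in the whole-tag result was not tested.

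**Figure D5:**
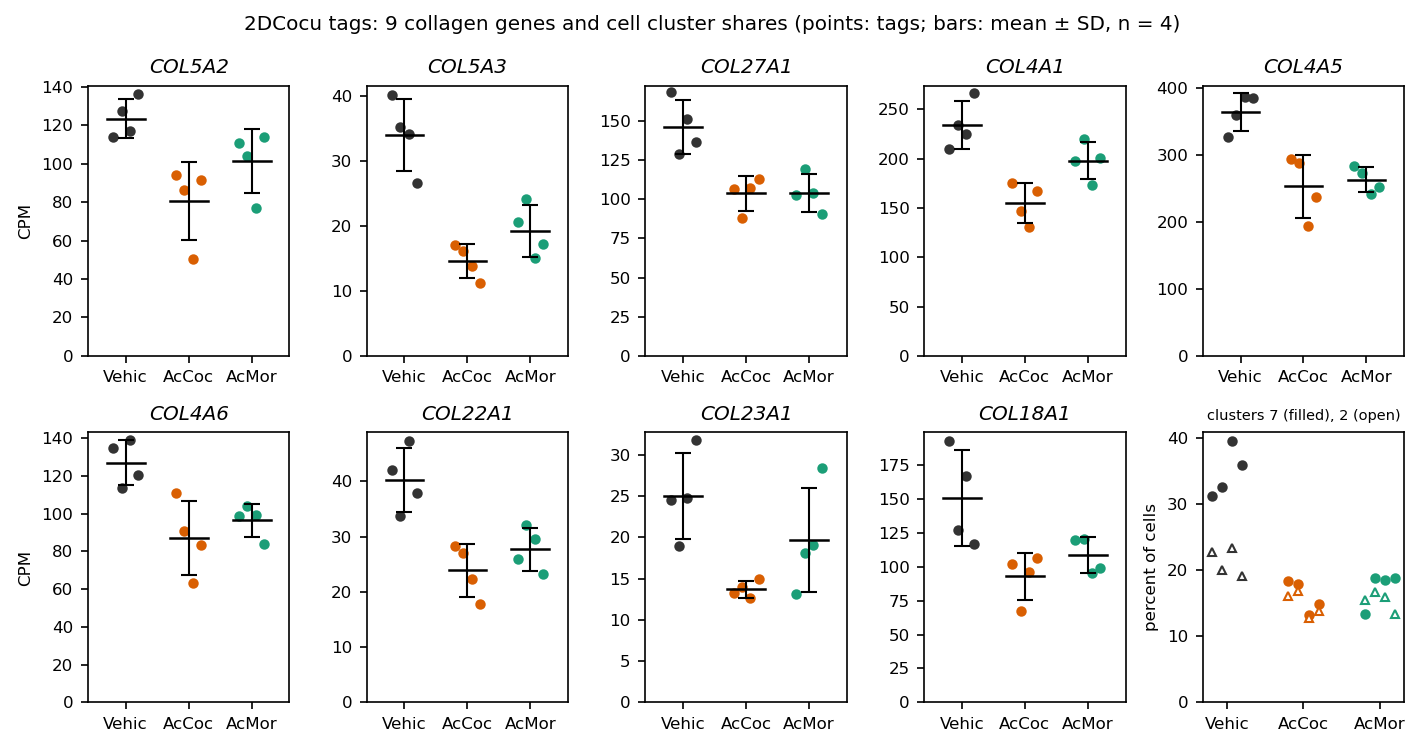
Levels in CPM of the 9 collagen genes called between AcCoc and Vehic in 2DCocu, with AcMor beside them, and the percent of cells in clusters 7 (filled) and 2 (open); points are tags and bars the mean ± SD of 4 tags. The 4 AcCoc tags lie below the 4 Vehic tags in each of the 9 gene panels, and cluster 7 averages 34.7% in Vehic against 16.0% in AcCoc.

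No collagen was called for AcCoc or AcMor in 3DFusi, or for AcDop or AcMor in 2DMono and 3DMono, where edgeR called 0% of all genes. At an unadjusted p under 0.05 the counts were 0 and 0 in 3DFusi, 2 and 12 in 2DMono and 2 and 14 in 3DMono. Of all genes, 1.66%, 0.747%, 2.41%, 6.42%, 3.35% and 8.71% lay under it in that order. With the tag number as a block, 1121 and 1127 of 26339 genes lay under it in 3DFusi, and 0 were called. DESeq2 called 1 collagen for AcMor in 2DMono and 4 for AcMor in 3DMono, and 0.0979% and 0.787% of all genes.

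A fixed list of 67 genes was also read, of which 60 were tested. It holds genes that make, process, bind or break down collagen, and some transcription and growth factors. Between 3DMono and 2DMono 8 were higher and 29 lower with a median log2 fold change of -0.54 (17.5% and 20.4% of all genes). Between 3DFusi and 2DCocu 19 were higher and 14 lower with a median of 0.07, where 26.1% and 22.7% of all genes were called. The largest falls in 3DMono were those of CCN2 at -5.49, of the collagen-binding integrin ITGA11 at -4.15 and of the prolyl hydroxylase P3H2 at -3.50. CCN2 is a leading gene of cluster 2, which had 1335 cells in 2DMono and 1 in 3DMono, and ITGA11 is one of cluster 14. The part of cell makeup in these changes was not tested. The rises were led by TWIST1, a mesenchymal transcription factor, at 1.87, TLL1 at 1.04 and ADAMTS3, a procollagen trimming protease, at 0.94. In 3DFusi the falls were led by ITGA11 at -2.52, ADAMTS14 at -1.50 and the collagen uptake receptor MRC2 at -1.46, and the rises by the procollagen protease enhancer PCOLCE at 1.88, TWIST1 at 1.60 and TLL2 at 1.50. Of 21 folding and modifying genes 1 was higher and 9 lower in 3DMono, against 6 and 4 in 3DFusi. In AcCoc of 2DCocu, P3H2, MRC2, LOXL1 and P4HA2 fell by 0.74, 0.60, 0.59 and 0.50 on the log2 scale, 4 of 60 tested where 2.5% of all genes were lower, and none rose.

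Among the arrangements with no treatment in their tags, summed collagens were at 6497 and 6790 CPM in the 2 tags of 2DProto4Nic, where mesenchymal-like cells were 31.7% and 43.0% of cells, and at 1265 and 1300 CPM in 2DProto3Wu. The lowest of all 46 tags were 2 of 3DProto2Xia, at 748 and 754 CPM. COL4A5 was at 1009 and 1125 CPM in 2DProto4Nic, above every tag of the 4 treated arrangements. In 3DProto1For and 3DProto2Xia COL1A1 was at 953 and 966 CPM in 2 tags of the first and at 594 CPM in 1 tag of the second, against 16.0, 5.06 and 4.56 CPM in the other 3 tags. The former 3 tags held mesenchymal-like cells (30.9%, 43.0% and 20.4%) and muscle-like cells (4.66%, 10.1% and 20.2%), and the latter held 0 of either.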

How the data were processed

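The authors deposited 1 matrix of expected counts for 43693 cells and 60286 genes. Per the submitters' processing notes, Salmon 1.7.0, alevin, Seurat 4.1.1 and hg38 were used. The deposited values are estimated counts (54.3% whole, 13.5% below 1), and the lowest number of detected genes per cell was 1006 and the highest mitochondrial share 10%. Tags were read from the cell names, and 2393 of 41192 barcodes occurred in several sublibraries. For each tag the counts of its cells were added up and rounded to whole numbers. Low genes were removed with filterByExpr (minimum count 10), libraries were scaled by TMM, and edgeR 4.0.16 ran its quasi-likelihood test with the robust option in R 4.3.3 with limma 3.58.1. P-values were adjusted by Benjamini-Hochberg over all genes tested. The treatment was a covariate of each format comparison, except with Vehic tags alone and with 3DFusi tags summed by number. The script was tested on simulated data. Cells were clustered with Leiden (leidenalg 0.10.2, scanpy 1.11.5, scikit-learn 1.9.0, Python 3.11.15) at resolution 0.8 on 2000 variable genes without collagens, and 1093 cells (2.50%) scored as doublets were kept. A cluster was named from 20 marker lists, by at least 3 markers and 40% of a list, and a class was tested with 20 or more cells in every tag. The members and lists were chosen with earlier results of these data known. Any collagen could be named, and full values went to called members with the largest change, up to 12 for each of the 2 comparisons of 3D with 2D and 5 for other comparisons. Same-numbered 3DFusi tags deviated together (9 pairs, r from 0.154 to 0.648), whereas r ran from -0.412 to 0.136 in 2DCocu. It ran from -0.150 to 0.180 in 2DMono and from 0.083 to 0.296 in 3DMono. With 2 tags a group, the last 2 arrangements cannot decide whether numbers pair tags. The 45 pairs of tags within groups differed by more than counting noise (chi-square per degree of freedom 5.41 to 156). Alternatives were DESeq2 1.42.0, RLE factors, library size alone, no low-count filter, no robust option, a replicate block, doublets or cell classes left out, Vehic tags alone, 3DFusi tags summed by number, resolutions 0.4 and 1.2, and each tag left out. The replicate block gave a number the same effect in every arrangement of a fit. Symbols of all 44 genes matched RefSeq (GRCh38.p14).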

Additional observations from a re-analysis of the deposited data

Results flagged for a closer look

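Of 63 groups of tags tested for a far tag with Dixon's test, 5 had one, and chance alone gives about 1 in 20. COL18A1 stood at 370 CPM in 2DMono AcDop 2, COL4A1 at 129 CPM in 3DMono AcDop 1 and COL19A1 at 27.9 CPM in 3DFusi Vehic 4, each far above the other tags of its arrangement. COL14A1 at 331 CPM and COL9A3 at 48.0 CPM stood apart in 3DFusi AcCoc 3, the tag in which cartilage-like cells were most frequent.

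The change from 2D to 3D differed between the Mono pair (2DMono, 3DMono) and the pair of 2DCocu and 3DFusi in 9 genes by an interaction term in edgeR. The differences in log2 fold change were 2.68 for COL8A1, 2.48 for COL1A1, 2.21 for COL26A1, 2.07 for COL12A1, 1.86 for COL23A1, 1.85 for COL4A4, 1.60 for COL5A3, 1.44 for COL27A1 and 1.37 for COL4A3.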

How the results depend on the processing

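Counts here are collagens called, and no share of all genes is given for fits with a tag left out. Between 3DMono and 2DMono the count of 33 became 20 without mesenchymal-like, cartilage-like, muscle-like and astrocyte-like cells and 21 with Vehic tags alone. Between 3DFusi and 3DMono the count of 17 became 10 with no filter, 10 without mesenchymal-like, cartilage-like and muscle-like cells, 9 with 3DFusi tags summed by number, 4 with the replicate block, and 9 (without 3DMono Vehic 1) to 24 (without 3DFusi Vehic 1) over single tags left out. There 1754 of 45959 genes were called with no filter and 1171 of 23514 with 3DFusi tags summed by number. Between 2DCocu and 2DMono the count of 10 became 6 with no filter (3779 of 45959 genes), 18 without the mesenchymal-like, cartilage-like and muscle-like cells, and 5 to 13 with a tag left out. The difference of both format comparisons (9) ranged from 8 to 18 with a tag left out. For AcCoc in 2DCocu (9) DESeq2 called 14, beside 2006 of 21032 genes, and leaving out a tag gave 3 to 10. For AcMor in 2DCocu (1) DESeq2 called 5, RLE factors 2, library size alone 2, no filter 4, no doublets 2, the replicate block 0, and a tag left out 0 to 2. Of all genes, DESeq2 called 697, RLE factors 200 and library size alone 150 of 21032. No filter called 391 of 42549, no doublets 302 of 20920 and the replicate block 43 of 22132. For AcMor in 2DMono (0) DESeq2 called 1 and no filter 5, beside 19 of 19416 and 185 of 40879 genes. For AcMor in 3DMono (0) DESeq2 called 4, no filter 11, the replicate block 1, and a tag left out 0 to 3, the 3 without 3DMono Vehic 1. Of all genes, DESeq2 called 174 of 22112, no filter 747 of 41301 and the replicate block 36 of 22112. Within excitatory neuron-like cells of 3DFusi and 2DCocu (12), resolution 1.2 gave 7, beside 4536 of 11219 genes. Of the fixed list of collagen-related genes, 20 in place of 33 were called between 3DFusi and 2DCocu with Vehic tags alone. All genes gave 6019 of 21408 in place of 10987 of 22511. The replicate block changed none of the other counts by more than 1.5 times. The same numbers did not pair tags in 2DCocu (r from -0.412 to 0.136). In 2DMono (-0.150 to 0.180) and 3DMono (0.083 to 0.296) groups of 2 tags cannot decide this.

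Among the 12 collagens with the largest called changes in each format comparison, signs turned for COL5A1, at 0.78, and COL18A1, at 0.39 on the log2 scale, between 3DMono and 2DMono without the 4 classes; further collagens that turned are given with that comparison. Between 3DFusi and 2DCocu, leaving out mesenchymal-like, cartilage-like and muscle-like cells, and then astrocyte-like cells as well, gave -0.49 and -0.42 for COL14A1, -1.01 and -0.13 for COL9A2 and -0.99 and -0.91 for COL9A3, and the latter alone turned COL15A1, to -0.026. Library size alone, leaving out astrocyte-like cells and summing 3DFusi tags in the comparisons with other arrangements were chosen after seeing the data. Requiring 50 cells of a class in every tag gave no value. The cause of these changes was not tested. Treatment comparisons in 2DMono and 3DMono rest on 2 tags a group.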
